A study of Mus musculus with 6 samples.

Results

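The Wnt ligands, their Frizzled receptors, the co-receptors Lrp5, Lrp6, Ror1, Ror2 and Ryk, and the secretion factors Porcn and Wls were followed in C3H10T1/2 cells, a mouse line of mesenchymal cells that can turn into fat, cartilage or bone cells in culture. Members were every probe set whose single array symbol was Wnt or Fzd followed by a digit, or 1 of the other 7 names, which gave 76 of 45101 probe sets and 37 genes. They held 32 probe sets of 19 Wnt ligands, 26 of 10 Frizzleds, 11 of the 5 co-receptors and 5 of the 2 secretion factors. The other 2 probe sets measure Fzd10os, a transcript on the strand opposite Fzd10 that carries the name but is not a Frizzled. Cells received 50 ng/ml BMP4, a bone morphogenetic protein, while they proliferated (3 samples) or were handled alike without BMP4 (3 control samples), and total RNA was taken after confluence. Nothing in the labels says whether each sample came from its own culture dish, and the p-values below therefore reflect spread among samples that may be technical repeats.

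Wnt proteins are lipid-modified by Porcn, carried to the cell surface by Wls and bound by the extracellular domain of a Frizzled. With Lrp5 or Lrp6 alongside, the signal stabilises beta-catenin, which then acts with TCF/LEF factors on target genes. With Ror1, Ror2 or Ryk, ligands such as Wnt5a act through other branches, on cell polarity or calcium. In mouse mesenchymal cells, beta-catenin signalling is known to hold back fat cell formation and to favour bone cell formation, and BMP4 given to proliferating C3H10T1/2 cells is known to commit them toward fat cells.

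Signals were linear intensities with a 2% trimmed mean of 150 on every array, and a signal was taken as above background when it exceeded 29.1, the highest value of 27 bacterial control probe sets. Between 56 and 59% of probe sets exceeded that bound on the BMP4 arrays, and between 54.4 and 55.7% on the control arrays. The bound was set by BMP4 sample 2. Bacterial controls peaked at 23.5, 29.1 and 24.1 with BMP4, against 17.1, 16.6 and 21 without it. Their median signals overlapped (8.4, 7.8 and 4.1 with BMP4, 5.3, 3.6 and 4.7 without). Whether the larger share above the bound with BMP4 reflects a higher background was not tested. All 8 mesenchymal markers examined were above the bound on all 6 arrays. The summed signal of 5 fat cell markers lay between 1136 and 1247 on the BMP4 arrays and between 559.6 and 625.4 on the control arrays. Fabp4, Pparg and Cebpa were higher and Lpl lower by the test described below. Adipoq read 92.2, 85 and 89.1 with BMP4 and 22.9, 12.6 and 14.8 in control samples, all 3 under the bound. It passed the filter on low signals only through the BMP4 samples, so no call is given for it. For 5 cartilage cell markers, these sums were 1603 to 1826 on the BMP4 arrays and 607.7 to 652 on the control arrays, with 3 of 4 tested markers higher. For 3 bone cell markers they were 155 to 196.6 on the BMP4 arrays and 160.1 to 184.3 on the control arrays, and none passed. Of 5 macrophage markers, 3 (Adgre1, Csf1r and Cd68) were above the bound on all 6 arrays and 2 (Ptprc and Tyrobp) on none, and the list's sum was 224.4 to 340 on the BMP4 arrays and 218.5 to 243.5 on the control arrays. Of 5 endothelial markers, Tek was above it on all 6 and was lower with BMP4 (-0.69 on the log2(signal + 16) scale, limma adjusted p = 0.0167), Pecam1 and Tie1 were above it on none, and the sums were 119.9 to 191.7 on the BMP4 arrays and 205.2 to 214.9 on the control arrays. Of 5 epithelial markers, Epcam and Krt8 were above it on all 6 and Cdh1 and Krt18 on none, and the sums were 332.7 to 568.2 on the BMP4 arrays and 445 to 542 on the control arrays. These are bulk samples, so fewer cells of a type and less RNA per cell cannot be told apart, and the part of the fat, cartilage and endothelial markers' shifts in the results below was not tested.

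With BMP4, Fzd8, Fzd9 and the ligand Wnt5b rose, and Fzd1, Fzd7 and the co-receptor Ror1 fell, by 1.3-fold to 2.03-fold. The Fzd9 call was lost in 9 of 15 alternative settings and the Fzd7 call in 8. The brighter Wnt5b probe set was not called. Of the 76 member probe sets, 51 from 28 genes passed a filter on low signals and were tested with limma on the log2(signal + 16) scale, on which all differences below are BMP4 minus control with their standard error. At a Benjamini-Hochberg adjusted p under 0.05 over all 27022 probe sets tested, 3 member probe sets were higher and 4 lower, against 1136 and 1328 over the whole array. Frizzleds and co-receptors gave 6 of these 7 calls and 30 of the 51 probe sets tested. The calls are 13.7% of the tested members, beside 9.12% of all probe sets (4.2% higher, 4.91% lower). When each array was centred on its own median, which moved the median over all probe sets by -0.09, 2 members were higher and 5 lower, and the higher share of all calls was 25.1%, against 46.1% as deposited. The median member difference was -0.06, with 19 positive and 32 negative, beside a median of 0.03 over all probe sets.

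**Figure D1:**
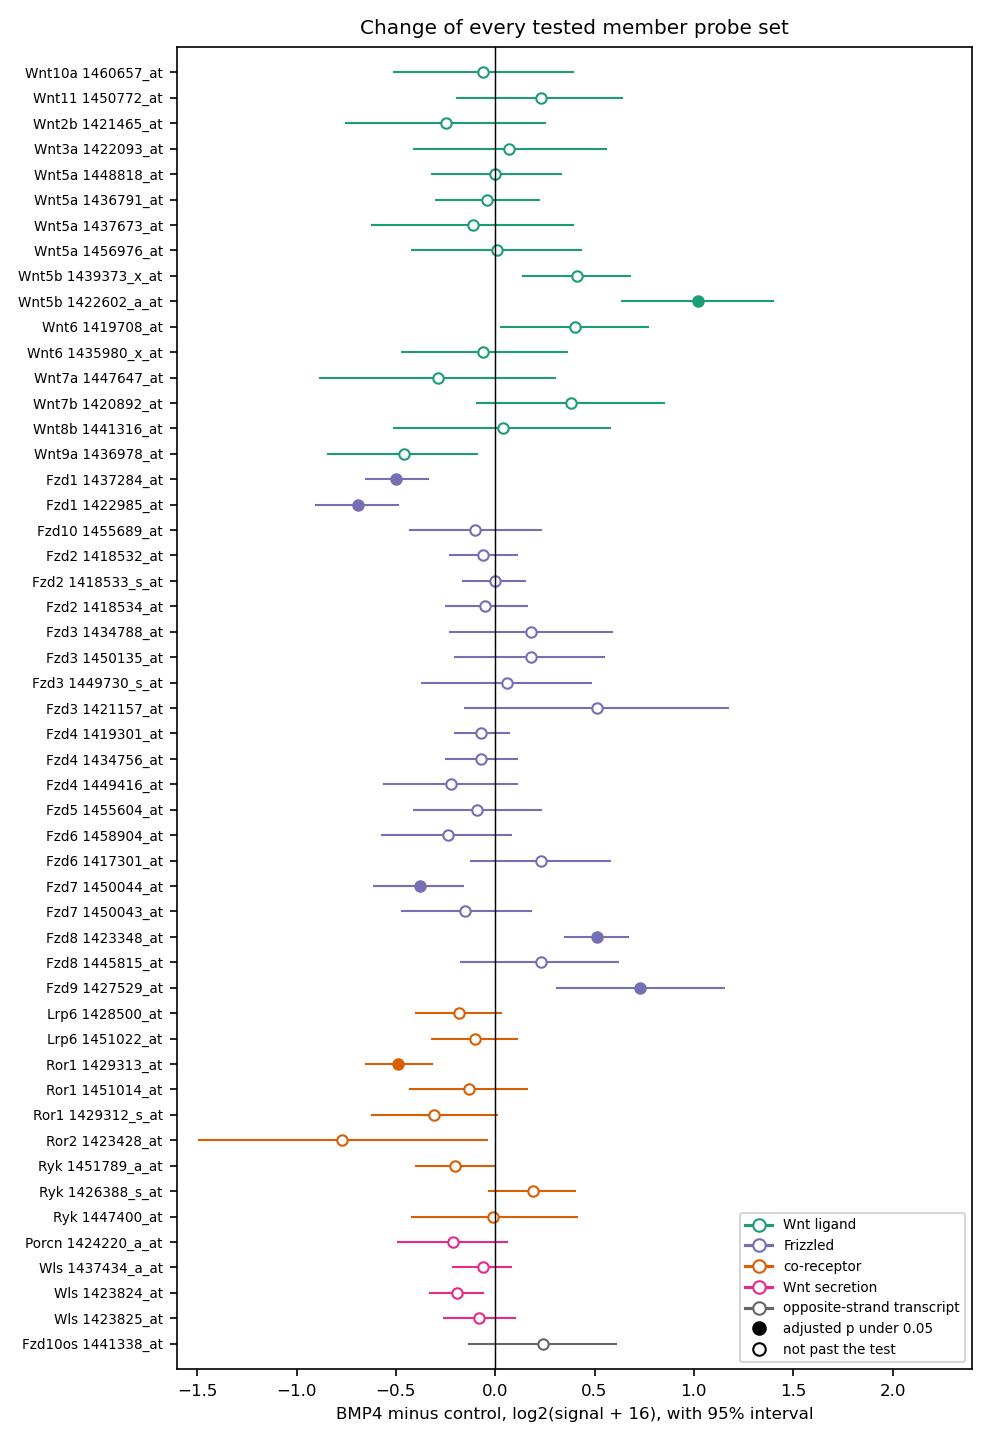
Difference between BMP4 and control samples on the log2(signal + 16) scale (x axis) for each of the 51 tested member probe sets (y axis), with 95% intervals and with filled points for those at an adjusted p under 0.05. The 7 filled points run from -0.69 (Fzd1) to 1.02 (Wnt5b), and most intervals of the open points cross 0.

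The groups did not overlap in 15 of the 51 tested member probe sets (29.4%), 6 of them higher with BMP4 and 9 lower. Over all tested probe sets the groups did not overlap in 28.2% (15% higher, 13.2% lower). Of the 15, Frizzleds held 8 (38.1% of 21 tested) and ligands 4 (25% of 16). Co-receptors held 2 (22.2% of 9) and the secretion factors 1 (25% of 4).

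Most ligand RNAs were near or under background. Only 9 of the 32 ligand probe sets, from 6 genes (Wnt5a, Wnt5b, Wnt6, Wnt7a, Wnt7b and Wnt11), exceeded the bound on all 6 arrays. Every other probe set of Wnt6, Wnt7a and Wnt7b was under the bound on every array. Their mean signals were 25.9 for Wnt6, 2.03 and 1.75 for Wnt7a and 4.95 for Wnt7b, so the probe sets of these genes disagree on the bound. All 10 Frizzleds, by contrast, had at least 1 probe set above it on all 6 arrays, as did 3 of the 5 co-receptors (Lrp6, Ror1 and Ryk) and both secretion factors. For 7 ligands no probe set exceeded the bound on any array. They were Wnt1, Wnt2, Wnt3, Wnt8a, Wnt9b, Wnt10b and Wnt16. Wnt10b is the ligand best known for keeping mouse preadipocytes undifferentiated, and its signals were 25.8, 11.8 and 9.8 with BMP4 and 17.6, 7.4 and 9.6 in control samples, which overlapped and all lay under background. A signal under background gives no direction and does not show that a ligand is absent.

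**Figure D2:**
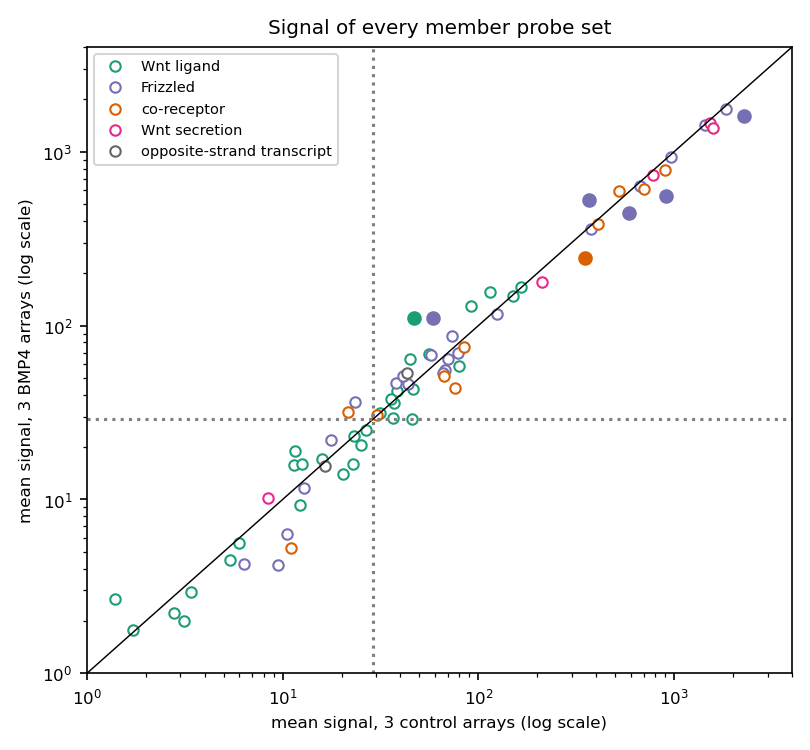
Mean signal of each of the 76 member probe sets on the 3 BMP4 arrays (y axis) and the 3 control arrays (x axis), both on log scales, coloured by role, with filled points for an adjusted p under 0.05. The dotted lines mark the background bound of 29.1 and the diagonal marks equal signal. Of the 32 ligand probe sets, 15 were under the bound on every array, and the 7 filled points all lie above it.

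Wnt5b was the ligand that rose. It belongs with Wnt5a to a pair of related ligands that act largely without beta-catenin, and in cultured mouse preadipocytes it is known to favour fat cell formation. Probe set 1422602_a_at read 103, 119.5 and 108.9 with BMP4 and 51.4, 32.6 and 57.2 in control samples. Every BMP4 sample was above every control sample. The difference was 1.02 ± 0.17 (2.03-fold on the log2(signal + 16) scale, limma adjusted p = 0.00346). The second Wnt5b probe set, 1439373_x_at, had the higher mean signal and read 178.6, 139.9 and 151.3 with BMP4, against 124.5, 101.3 and 116.5 in control samples. Its groups did not overlap either, but the difference of 0.41 ± 0.12 missed the threshold (limma adjusted p = 0.0672). The ending of its name marks a probe set in which some probes may also bind other transcripts.

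Wnt5a, the close relative, showed no such difference on any of its 4 tested probe sets. Probe set 1448818_at read 141.4, 156.5 and 202.1 with BMP4 and 201.3, 146.5 and 151.1 in control samples, with a 95% interval from -0.32 to 0.33. Probe set 1436791_at gave an interval from -0.3 to 0.22. The groups overlapped on both, and these intervals leave out a difference as large as that of the Wnt5b probe set that passed. The difference between the changes of the 2 genes was not itself tested.

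Among the other ligands, none passed the test. Wnt6 and Wnt10a are neighbouring genes in the mouse genome, and both are known to hold back fat cell formation in mouse mesenchymal cells. Wnt6 (1419708_at) read 72.1, 65.2 and 54.3 with BMP4, against 52.2, 44.7 and 37.2 in control samples, without overlap, for a difference of 0.4 ± 0.17 (limma adjusted p = 0.191). Its second probe set, under background on every array, gave -0.06, and Wnt10a gave -0.06 ± 0.2 with overlapping groups. Wnt9a, known for its part in joint formation, read 28.2, 33.1 and 25.3 with BMP4 and 44.8, 44.2 and 48.3 in control samples. The groups did not overlap, but 2 of the BMP4 signals were under background, and the difference of -0.46 ± 0.17 missed the threshold (limma adjusted p = 0.13), which it passed without the intensity trend (0.0434). Its genomic neighbour Wnt3a, a standard activator of beta-catenin signalling, gave 0.07 ± 0.22.

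Wnt7b, known for its role in lung and bone formation, read 191.9, 91.7 and 106 with BMP4, against 88.7, 104 and 83.3 in control samples. A single BMP4 sample stood far above the others, the groups overlapped, and the difference was 0.38 ± 0.21 (limma adjusted p = 0.333). Wnt11, a ligand of cell movement in the early embryo, gave 0.23 ± 0.19. Wnt7a, which patterns the back of the limb, gave -0.29 ± 0.27 on its tested probe set, with control signals of 104.9, 38.6 and 96.3 on either side of the BMP4 signals of 69.7, 53.1 and 52.8. Wnt2b (-0.25 ± 0.23) and Wnt8b (0.04 ± 0.25) were above background on 4 of 6 arrays each. Wnt4 had a single signal above background on 1 of its 2 probe sets and was not tested.

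Among the Frizzleds, Fzd1 fell on both of its probe sets. It belongs with Fzd2 and Fzd7 to a subgroup of closely related receptors. Probe set 1437284_at read 1554.7, 1694 and 1578 with BMP4 and 2198.4, 2216.8 and 2418.2 in control samples. Probe set 1422985_at read 486.5, 629 and 550.9 with BMP4 and 913.7, 837.4 and 963.5 in control samples. On both, every BMP4 sample was below every control sample. The differences were -0.5 ± 0.07 (1.41-fold lower, limma adjusted p = 0.00123) and -0.69 ± 0.09 (1.62-fold lower, limma adjusted p = 0.000846). Fzd1 was the one member gene with more than 1 tested probe set in which all of them passed.

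Fzd7, a receptor with known roles in stem cells, fell on 1 of 2 probe sets. Probe set 1450044_at read 387.8, 501.8 and 452.7 with BMP4 and 656.5, 570.6 and 534.5 in control samples. The groups did not overlap, though the gap between the nearest samples was small, and the difference was -0.38 ± 0.1 (1.3-fold lower, limma adjusted p = 0.0423). The dimmer probe set 1450043_at overlapped and gave -0.15 ± 0.15 (limma adjusted p = 0.607). The Fzd7 call was lost in 8 of 15 alternative settings, among them 4 of the 6 fits that left out 1 sample: BMP4 sample 1 (0.117), BMP4 sample 3 (0.0824), control sample 1 (0.153) and control sample 2 (0.0944).

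Fzd2, the remaining receptor of the subgroup, was far above background in all 6 samples and did not pass the test on any of 3 probe sets. Probe set 1418532_at read 1689.2, 1794.2 and 1801.1 with BMP4, against 1662, 1920.8 and 1936.4 in control samples, and the groups overlapped. Its 95% interval ran from -0.23 to 0.11, and those of the other 2 probe sets from -0.16 to 0.15 and from -0.25 to 0.16. All 3 intervals lie above the Fzd1 differences of -0.5 and -0.69. Whether the change of Fzd2 differs from that of Fzd1 was not tested.

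Fzd8 and Fzd9 rose. Fzd8, a receptor whose Wnt-binding domain is widely used as a soluble Wnt trap, read 556.4, 515.3 and 515.3 with BMP4 and 367.7, 346.4 and 386.9 in control samples on probe set 1423348_at. The lowest BMP4 signal was well above the highest control signal, and the difference was 0.51 ± 0.07 (1.42-fold, limma adjusted p = 0.00117). The dimmer Fzd8 probe set 1445815_at overlapped and gave 0.23 ± 0.18 (limma adjusted p = 0.501). Fzd9, which in mice is known to be needed for normal bone mass, has 1 probe set. It read 77.1, 122.2 and 130.9 with BMP4 and 64.3, 47.4 and 65.1 in control samples. The groups did not overlap, but BMP4 sample 1 was close to the control samples.

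The Fzd9 difference was 0.73 ± 0.19 (1.66-fold, limma adjusted p = 0.036). It was lost in 9 of 15 alternative settings, among them every fit that left out 1 sample except BMP4 sample 1, with an adjusted p of 0.119 without BMP4 sample 2, 0.123 without BMP4 sample 3, and 0.0735, 0.126 and 0.0621 without control samples 1, 2 and 3.

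**Figure D3:**
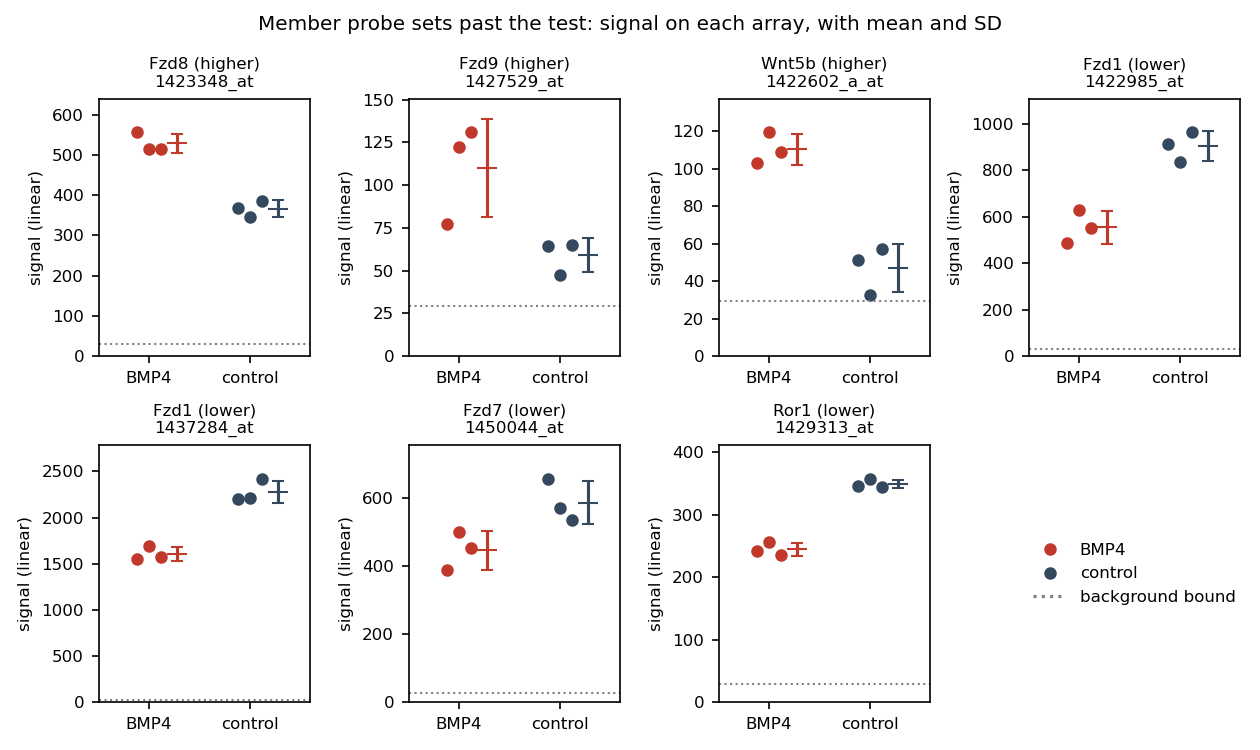
Signal (linear, y axis from 0) on each BMP4 and control array for the 7 member probe sets at an adjusted p under 0.05, with the mean and SD of the 3 samples and the background bound of 29.1 as a dotted line. The groups do not overlap in any panel, and the narrowest gaps are those of Fzd9 (77.1 with BMP4, 65.1 in control samples) and Fzd7 (501.8 with BMP4, 534.5 in control samples).

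The remaining 5 Frizzleds did not pass the test. Fzd4, also the receptor for Norrin in retinal vessels, read 629.3, 660.8 and 625.4 with BMP4, against 671.2, 673.2 and 664.1 in control samples on probe set 1419301_at. The groups just failed to overlap, and the 95% interval of -0.2 to 0.07 held the difference close to 0. Fzd3 and Fzd6 are receptors of cell polarity, known for axon guidance and hair patterning. The 4 tested Fzd3 probe sets gave 0.06 to 0.51, all with overlapping groups. The 2 tested Fzd6 probe sets separated the groups in opposite directions, with 46.7, 46.9 and 47.3 with BMP4 against 39.6, 39.3 and 34.7 in control samples on 1417301_at, and 50.8, 50.1 and 59.2 with BMP4 against 61.8, 66.5 and 70 in control samples on 1458904_at. Neither passed, so no direction can be given for Fzd6. Fzd5 gave -0.09 ± 0.14, Fzd10 -0.1 ± 0.15 and the opposite-strand Fzd10os 0.24 ± 0.17.

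Promoter windows of Fzd1, Fzd7, Fzd9 and Wnt5b, some of the genes called in either direction, are printed. That of Ror1, which also fell, was searched but is not printed. The Fzd8 window is not reported here. The windows are RefSeq windows on GRCm38.p6, from 250 bases before to 50 after an annotated start, written 5′ to 3′ on the gene's strand. They were searched on both strands for CTTTGAT and CTTTGTT, forms of the TCF/LEF site, and for GGCGCC and also for GGAGCC and GTCTAGAC, elements described for SMAD proteins, which carry BMP signals. Capitals mark every match, and a match on the other strand appears as its reverse complement. GGCGCC and also GTCTAGAC read the same on both strands, no 2 matches in the printed windows overlap, and positions count the leftmost base of a match from 1 at the annotated start, with negative numbers before it.
Fzd1, fell, chr5:4758167-4758466, minus strand: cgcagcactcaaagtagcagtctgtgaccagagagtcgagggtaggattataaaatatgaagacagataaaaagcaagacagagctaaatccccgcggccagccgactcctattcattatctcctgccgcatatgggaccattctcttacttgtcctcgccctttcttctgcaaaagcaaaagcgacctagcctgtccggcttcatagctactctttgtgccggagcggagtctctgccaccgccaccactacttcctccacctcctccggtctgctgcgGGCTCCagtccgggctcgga
Fzd7, fell, chr1:59481897-59482196, plus strand: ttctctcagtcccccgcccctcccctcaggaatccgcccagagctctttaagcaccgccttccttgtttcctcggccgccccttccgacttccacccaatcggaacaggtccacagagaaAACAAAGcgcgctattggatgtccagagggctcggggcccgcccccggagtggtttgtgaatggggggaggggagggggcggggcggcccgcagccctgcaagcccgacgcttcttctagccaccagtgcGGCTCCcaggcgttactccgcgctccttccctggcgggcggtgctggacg
Fzd9, rose, chr5:135250998-135251297, minus strand: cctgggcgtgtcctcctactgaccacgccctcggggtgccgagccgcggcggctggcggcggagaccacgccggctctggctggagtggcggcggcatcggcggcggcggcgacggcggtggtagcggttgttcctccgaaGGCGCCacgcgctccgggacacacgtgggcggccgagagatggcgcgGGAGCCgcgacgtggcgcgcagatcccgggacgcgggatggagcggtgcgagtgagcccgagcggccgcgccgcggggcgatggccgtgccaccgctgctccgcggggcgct
Wnt5b, rose, the third of 3 annotated starts, chr6:119449337-119449636, minus strand: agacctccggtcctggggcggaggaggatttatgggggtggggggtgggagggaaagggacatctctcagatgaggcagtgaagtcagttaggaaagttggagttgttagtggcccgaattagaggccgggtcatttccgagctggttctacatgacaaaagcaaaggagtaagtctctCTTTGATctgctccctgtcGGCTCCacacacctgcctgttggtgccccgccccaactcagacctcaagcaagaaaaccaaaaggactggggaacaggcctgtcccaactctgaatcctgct

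The Fzd1 window held GGAGCC once, on the opposite strand at 31. The Fzd7 window held CTTTGTT on the opposite strand at -130 and GGAGCC on the opposite strand at 1. The Fzd9 window held GGCGCC at -109 and GGAGCC on the gene's strand at -62. The printed Wnt5b window, chosen as the only one of its 3 with a TCF/LEF form, held CTTTGAT on the gene's strand at -71 and GGAGCC on the opposite strand at -52, and the Ror1 window held none of the 5. The first Wnt5b window, not printed, held GGAGCC 3 times, at -78, -67 and 20, and no TCF/LEF form, and the second held none of the 5. GGAGCC was thus found in windows of genes that fell and of genes that rose. Of all 32851 windows, 3.73% held CTTTGAT, 5.85% CTTTGTT, 11.9% GGCGCC, 30.8% GGAGCC and 0.213% GTCTAGAC. Windows were at hand for 25 of the 37 member genes. These 28 windows had a median GC content of 71%, against 52.7% over all windows. Of the 28, 17 held GGAGCC and 11 held GGCGCC, both motifs made largely of G and C. CTTTGAT and CTTTGTT were each in 2 of the 28 (7.14%), and GTCTAGAC was in none. A match is a run of letters, not a bound site.

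Of the co-receptors, Ror1 fell. It is a receptor tyrosine kinase-like protein of the Wnt5a branch. Probe set 1429313_at read 242.4, 256.2 and 235.8 with BMP4 and 346.1, 357.3 and 344.4 in control samples. Samples of a group were close to each other, the groups were far apart, and the difference was -0.49 ± 0.07 (1.4-fold lower, limma adjusted p = 0.00179). Probe set 1429312_s_at also separated the groups, with 49.7, 50.3 and 53.2 with BMP4 against 69.8, 66 and 65 in control samples, but its difference of -0.31 ± 0.14 did not pass (limma adjusted p = 0.233). The third, 1451014_at, overlapped and gave -0.13 ± 0.13 (limma adjusted p = 0.598).

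Ror2, the paralog of Ror1 and a known Wnt5a receptor, had the most negative member difference and no call. Its tested probe set read 13.8, 77.4 and 40.3 with BMP4, against 85.4, 77.5 and 65.4 in control samples. The BMP4 samples ranged from under background to the level of a control sample, and the difference was -0.77 ± 0.33 (limma adjusted p = 0.196). It passed without BMP4 sample 2 (limma adjusted p = 0.0271) and shrank to -0.34 without BMP4 sample 1.

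Lrp6, the co-receptor of the beta-catenin branch, read 569.7, 596.6 and 672.4 with BMP4, against 790.8, 697.1 and 610.7 in control samples on probe set 1428500_at. The groups overlapped on this and on the second probe set, with 95% intervals from -0.4 to 0.03 and from -0.32 to 0.11. Its paralog Lrp5 was above background in 3 of 6 samples, with signals of 2.1, 42.2 and 51.3 with BMP4 and 32.4, 21.1 and 11.4 in control samples, and was not tested. Ryk, an atypical receptor with an inactive kinase domain, gave opposite signs on its 2 bright probe sets. Probe set 1451789_a_at read 674, 881.1 and 801.7 with BMP4 and 870, 928.1 and 905.3 in control samples (-0.2 ± 0.09), and 1426388_s_at read 627.3, 557.2 and 600.2 with BMP4 and 511.7, 602.2 and 457.5 in control samples (0.19 ± 0.1). Both overlapped and neither passed.

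Neither secretion factor passed. Wls was far above background in all 6 samples, and 1 of its 3 tested probe sets, 1423824_at, separated the groups with 1364.7, 1414.6 and 1345.8 with BMP4 against 1591.6, 1575 and 1559.9 in control samples. Its difference was -0.19 ± 0.06 (limma adjusted p = 0.0819), and it depended on the scaling, passing after quantile normalization (0.0483), cyclic loess (0.0338) and median centring (0.0443). The other 2 Wls probe sets overlapped and gave -0.06 and -0.08. Porcn, the enzyme that adds the lipid, read 202.3, 159.2 and 175.2 with BMP4 and 187.9, 194 and 250.5 in control samples (-0.21 ± 0.12), with overlapping groups.

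Of the 14 member genes with several tested probe sets, 10 had the same sign on all of them. Among the 5 such genes with a call, 4 had it on some probe sets only (Wnt5b, Fzd7, Fzd8 and Ror1), and the called and uncalled probe sets of each had the same sign. Averaging the probe sets of each gene, an alternative chosen after seeing the data that called 11.4% of 12966 genes, gave 0.71 for Wnt5b (limma adjusted p = 0.00363), -0.6 for Fzd1 (0.000655), 0.37 for Fzd8 (0.0359), -0.31 for Ror1 (0.04), 0.73 for Fzd9 (0.0272) and -0.26 for Fzd7 (0.0696). Fzd7 was thus the one gene whose call did not hold as a gene average.

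The rest of the pathway was read from lists of 100 genes chosen with earlier results of these data known, using the brightest tested probe set of each gene. Of 81 measured genes, 7 rose and 9 fell (19.8%), beside 10.7% of all 12966 genes (5.03% higher, 5.67% lower). The 7 and the 19.8% count Frzb. It passed the filter on low signals only through the BMP4 samples, and no call is given for it below. The median difference of the 81 genes was -0.04, beside 0.03 over all genes. Under that rule Wnt5b was read from its brighter probe set and was not called. Of the 10 measured genes of the inhibitor list, 3 fell, with Frzb left out of that count. For the other lists, the share called was 33.3% of the R-spondin list and 5.88% of the destruction complex list. It was 16.7% of the TCF/LEF list, 26.7% of beta-catenin targets and 15.4% each of the polarity and calcium lists. Each of these short lists stands beside the same 10.7% of all genes.

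Among extracellular inhibitors of Wnt signalling and their receptors, Dkk2, Sfrp2 and Kremen1 fell. Of 10 measured genes of that list, 3 fell, 1 (Frzb) was counted as higher and 6 did not pass, with a median of -0.12. Frzb, a secreted Frizzled-like protein that binds Wnts and is known from cartilage, read 64.8, 69 and 77.5 with BMP4 and 5.6, 3.1 and 9.2 in control samples, where all signals were under background. Against the background bound it was at least 2.41-fold higher with BMP4. It passed the filter on low signals only through the BMP4 samples, and fell under it when any 1 of them was left out, so no p is given for it. Its second probe set had a mean signal of 29.1 over the 6 arrays, at the background bound. That probe set gave a difference of 0.88, from which no call is taken. Dkk2, which binds Lrp5 and Lrp6, read 157.8, 183.2 and 130 with BMP4 and 429.4, 403.1 and 379.8 in control samples (-1.29 ± 0.11, limma adjusted p = 3.91e-05). The secreted Frizzled-related protein Sfrp2 read 1972.8, 1892.7 and 1756.9 with BMP4 and 2862.3, 3274.9 and 3227.5 in control samples (-0.73 ± 0.08, limma adjusted p = 0.000194). In neither Dkk2 nor Sfrp2 did the groups overlap. Kremen1, a receptor for Dkk proteins, also fell (-0.55 ± 0.12, limma adjusted p = 0.0123). The Kremen1 call was lost without control sample 1, where the difference was -0.47 (limma adjusted p = 0.0642). Its other 2 probe sets did not pass (-0.24, limma adjusted p = 0.29, and 0.03, 0.953).

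Among R-spondins, their Lgr receptors and the ubiquitin ligases that remove Frizzleds from the surface, 1 of 6 measured genes rose and 1 fell (median 0.08). Lgr4, an R-spondin receptor, read 1697.2, 1591.2 and 1703.2 with BMP4 and 993.5, 953 and 936.5 in control samples (0.78 ± 0.06, limma adjusted p = 2.81e-05). Znrf3, a ligase of Frizzleds and itself a beta-catenin target, read 127, 125.3 and 134.2 with BMP4 and 179.3, 175.7 and 175.4 in control samples (-0.41 ± 0.09, limma adjusted p = 0.0186). Neither gene's groups overlapped. The Znrf3 call was lost without BMP4 sample 2 (limma adjusted p = 0.0583) and without control samples 1 (0.0702), 2 (0.0675) and 3 (0.056).

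Inside the cell, 1 of 17 measured genes of the destruction complex and Dishevelled rose (median -0.07). It was the kinase gene Gsk3b (0.39 ± 0.07, limma adjusted p = 0.00657), for which 2 of 4 other probe sets also passed (0.37 and 0.73) and 2 did not (0.1 and 0.44). The call was lost with median centring (limma adjusted p = 0.0521) and without the intensity trend (0.0654). Of 12 TCF/LEF factors and beta-catenin partners, 2 rose and none fell (median 0.2). They were Ctnnbip1, whose protein keeps beta-catenin from TCF factors and so acts against the list's name (0.76 ± 0.07, limma adjusted p = 8.08e-05), and Tcf7l1, a TCF factor that mostly represses (0.5 ± 0.08, limma adjusted p = 0.0016). The second Tcf7l1 probe set passed too (0.51, limma adjusted p = 0.00446), and that of Ctnnbip1 did not (0.4, 0.0509).

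Of 15 measured genes known as beta-catenin targets, 1 was called higher and 3 lower (median -0.01), beside 5.03% and 5.67% of all genes. Tnfrsf11b, the decoy receptor that limits bone resorption, rose (0.52 ± 0.14, limma adjusted p = 0.0423), and Znrf3, Ccnd1 (-0.32 ± 0.08, limma adjusted p = 0.04) and Twist1 (-0.48 ± 0.13, limma adjusted p = 0.044) fell. The other 2 Ccnd1 probe sets did not pass (-0.16, limma adjusted p = 0.283, and -0.28, 0.0716), and the second of Tnfrsf11b did (0.66, 0.0354). The calls of Tnfrsf11b, Ccnd1 and Twist1 were each lost in 5 of the 6 fits that left out 1 sample. Tnfrsf11b passed only without control sample 1 (limma adjusted p = 0.024), Ccnd1 only without BMP4 sample 3 (0.0331) and Twist1 only without BMP4 sample 2 (0.0251). Axin2, the target most often used as a readout, was under the filter and was not tested. Of 13 planar cell polarity genes, none rose and 2 fell (median 0.03), Prickle2 (-0.4 ± 0.08, limma adjusted p = 0.0104) and Dact1 (-0.35 ± 0.08, limma adjusted p = 0.018). Of 13 genes of the calcium branch, Nfatc1 rose (0.62 ± 0.15, limma adjusted p = 0.0217) and Nfatc4 fell (-0.45 ± 0.09, limma adjusted p = 0.00746), with a median of -0.05. Of 4 other Nfatc1 probe sets 2 passed (0.73 and 0.73) and 2 did not (-0.18 and 0.41), and neither of 2 other Nfatc4 probe sets did (-0.47 and -0.19). Left-out samples ended the calls of Prickle2 (without control sample 1, limma adjusted p = 0.0513), Dact1 (without BMP4 sample 3, 0.0605, and control samples 1, 0.0783, and 3, 0.0606) and Nfatc1 (without BMP4 sample 3, 0.0728, and control samples 2, 0.0638, and 3, 0.0748). Without the intensity trend, the calls of Dact1 (limma adjusted p = 0.0848), Nfatc1 (0.0592) and Nfatc4 (0.0641) were lost. That of Nfatc1 was also lost without the filter (limma adjusted p = 0.0526) and with median centring (0.057).

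**Figure D4:**
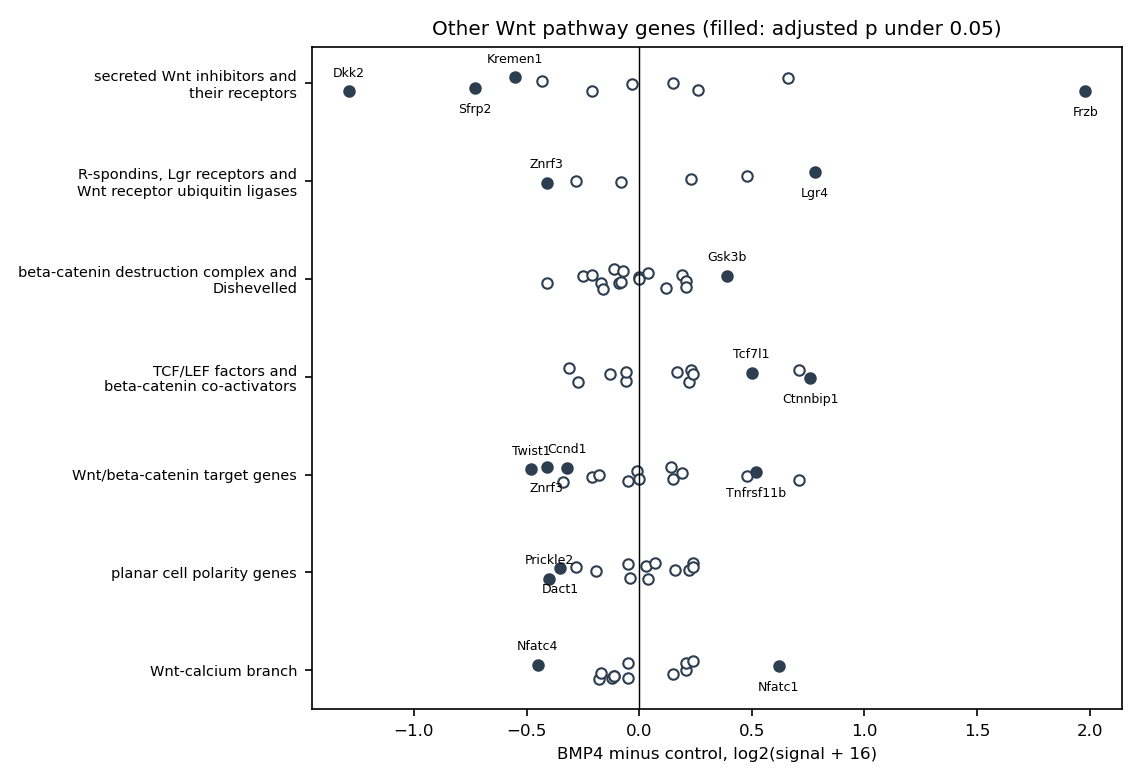
Difference between BMP4 and control samples on the log2(signal + 16) scale (x axis) for each measured gene of 7 other Wnt pathway lists (y axis), 1 probe set a gene, with filled and named points for an adjusted p under 0.05. The points furthest from 0 are Frzb at 1.98, whose control signals were under background and for which no p is given in the text, and Dkk2 at -1.29.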

How the data were processed

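Arrays with 1 colour, 6 in all, of biotin-labelled total RNA were used, 3 per group, with groups and replicate numbers taken from the sample titles. The authors deposited linear signal intensities, for which the submitters' processing notes name GCOS 1.3. How these were background-corrected and scaled is not given in the sources used. All 6 arrays have a 2% trimmed mean of 150, and no further scaling was applied. A common target hides any shift shared by all transcripts. Array precision is limited by the number of arrays.

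The 64 array control probe sets were left out. Signals were tested as log2(signal + 16) with lmFit and eBayes of limma 3.58.1 (R 4.3.3), letting the prior variance follow intensity. Tested were the 27022 probe sets whose mean log2(signal + 16) was above the 40th percentile, which corresponds to a signal of 23.5. Benjamini-Hochberg adjustment ran over all of them, with a threshold of 0.05. Fold changes on this scale understate those of dim probe sets. Gene names came from the platform annotation, and the IDs of all 76 member probe sets matched RefSeq. Named in full were members at the threshold, their partner probe sets and the brightest members of each role. In pathway lists, up to 3 genes per direction were named. The members and lists were chosen with earlier results of these data known. The fit was tested on simulated data. The alternatives covered the pseudocount, filter, scaling, trend, replicate block and each sample left out.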

Additional observations from a re-analysis of the deposited data

How the results depend on the processing

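Of the 7 member calls, 5 (Wnt5b 1422602_a_at, both Fzd1 probe sets, Fzd8 1423348_at and Ror1 1429313_at) held under all 15 alternatives, and no member call changed sign. Member counts lay between 2 and 3 higher and between 3 and 5 lower. Fzd9 was also lost without the filter on dim probe sets (limma adjusted p = 0.0915), with quantile normalization (0.0582), with median centring (0.0721) and without the intensity trend (0.0871). Fzd7 was also lost without that filter (0.098), with quantile normalization (0.0598) and without the trend (0.151). Without the trend, 1422 probe sets passed over the whole array, against 2464, and 9 pathway genes, against 16, both counted with Frzb. Leaving out 1 sample gave 1622 (without control sample 2) to 1996 probe sets and 10 (without control sample 1 or 3) to 13 pathway genes. Frzb fell under the filter with a pseudocount of 1, with a filter at the 60th percentile and without any 1 BMP4 sample.

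The labels give shared replicate numbers but no shared culture, batch or day, so the numbers were not taken to pair samples. Deviations of samples with the same number had correlations of 0.01, 0 and -0.07. With 3 samples per group this check cannot settle the pairing. With the replicate number as a block, 2090 probe sets passed, and 3 members were higher and 3 lower, Fzd7 being lost (limma adjusted p = 0.0707). Depth on arrays is signal over background, which limits the ligands most: 15 of 32 ligand probe sets were under the bound on every array.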
